A study of Mus musculus with 2 samples.

Results

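The nuclear genes of respiratory complex I were described in mouse gastrocnemius, a hindlimb calf muscle of mostly fast fibres, by long-read RNA sequencing. They were taken as every annotated gene whose symbol begins with Ndufa, Ndufb, Ndufc, Ndufs or Ndufv and that had reads, which gave 47 of the 14675 annotated genes with reads. Of these, 37 encode structural subunits of complex I, 8 are assembly factor genes of the Ndufaf series, and the other two are Ndufa4 and Ndufa4l2. Ndufa4 was named as a complex I gene, but its protein is now known as a subunit of complex IV, and Ndufa4l2 encodes a related protein. The 37 subunit genes, Ndufa4 and Ndufa4l2 are called the 39 structural genes where they are summed. Another 4 annotated loci that match the symbols, Ndufab1-ps, Ndufs6b, Ndufb4c and Ndufa11b, are processed pseudogenes listed with no reads in either library.

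The tissue came from male B6CASTF1/J mice aged 2 months, the F1 hybrid of C57BL/6J and CAST/EiJ mice, with no treatment named. The study holds 2 libraries, replicate 1 and replicate 2, each made from 2 µg of RNA and sequenced as whole complementary DNA molecules. Since both belong to 1 group, the values below are descriptions without tests. The labels number the males differently but give both the same donor identifier, and the spread between the libraries may be technical.

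Complex I oxidises NADH and passes its electrons to ubiquinone while pumping protons across the inner mitochondrial membrane. Its matrix arm holds the flavin and iron-sulfur clusters, and its membrane arm pumps the protons. The core subunits carry out catalysis and are conserved from bacteria, the membrane core is encoded by mitochondrial DNA, and the accessory subunits surround and stabilise the core. In skeletal muscle, oxidative fibres are richer in mitochondria than fast glycolytic fibres.

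The libraries held 1107128 and 1402875 reads of annotated genes in replicates 1 and 2, and levels are given as CPM, reads per 1000000 of these. A long read stands for 1 molecule, so counts were not divided by transcript length. A count of 3 reads corresponds to 2.71 CPM in replicate 1 and 2.14 CPM in replicate 2. The summed level of 5 skeletal muscle fibre markers was 155220 and 131140 CPM, while 3 of 4 cardiac markers were listed with no reads in each library, and the adipocyte markers held 1 read in all. Other cell types had marker reads in both libraries, summed as 412 and 519 CPM for fibroblasts and 170 and 108 CPM for erythroid cells. Schwann markers summed to 92.1 and 102 CPM, endothelial ones to 28.0 and 47.0 CPM, and macrophage ones to 12.6 and 5.70 CPM. A list of 10 slow fibre genes was 3.01-fold higher in replicate 2 (3025 against 9110 CPM, 10 of 10 genes higher), and a list of 10 fast fibre genes was lower there in 10 of 10 genes. Whether that difference in fibre genes has a part in the differences between libraries below was not tested.

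Sequences are shown for the places where transcripts of these genes split, since the long reads resolve them directly. All are on build mm10 (GRCm38), from GENCODE M21 transcripts. In Ndufa5, which encodes an accessory subunit of the matrix arm, the exon at chr6:24522659-24522775 on the minus strand is 117 nt long, a multiple of 3, and codes for protein. It was included in 447 of 507 spanning reads in replicate 1 and in 622 of 698 in replicate 2. In Ndufaf6, an assembly factor gene, the coding exon at chr4:11066651-11066707 on the minus strand is 57 nt long, also a multiple of 3. It was included in 27 of 36 and 16 of 25 spanning reads. The alternative exon is in capitals, with 20 bases of the neighbouring exons on each side.

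Ndufa5: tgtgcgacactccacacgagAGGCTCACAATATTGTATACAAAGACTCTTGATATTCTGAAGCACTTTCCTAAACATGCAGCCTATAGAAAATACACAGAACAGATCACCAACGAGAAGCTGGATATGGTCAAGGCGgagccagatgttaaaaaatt

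Ndufaf6: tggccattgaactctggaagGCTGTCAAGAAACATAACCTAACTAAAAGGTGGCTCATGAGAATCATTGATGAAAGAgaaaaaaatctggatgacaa

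Ndufv3, an accessory subunit gene of the matrix arm at chr17:31520115-31531331 on the plus strand, has a short and a long form that differ by a coding exon of 1092 nt at chr17:31527310-31528401. The 3 junctions that tell the forms apart are shown with the upstream exon in lower case and the downstream exon in capitals. The capitals of the first and the last line are the same because both forms end in the same exon.

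Ndufv3, short form, second exon to last exon: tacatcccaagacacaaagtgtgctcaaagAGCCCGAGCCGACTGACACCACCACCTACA

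Ndufv3, long form, second exon to long exon: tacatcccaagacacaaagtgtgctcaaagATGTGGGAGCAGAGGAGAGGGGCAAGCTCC

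Ndufv3, long form, long exon to last exon: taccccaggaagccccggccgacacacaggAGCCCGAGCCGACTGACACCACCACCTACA

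Finer choices were seen in Ndufb1-ps and Ndufb2. Ndufb1-ps, the GENCODE name of the locus that RefSeq lists as the membrane arm subunit gene Ndufb1, begins its second exon at either of a pair of acceptor sites 3 nt apart. Ndufb2, a membrane arm gene, ends an internal exon at either of a pair of donor sites 4 nt apart, both after the stop codon. The bases present in only the longer form are in capitals.

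Ndufb1-ps, longer form: accaggctgaagCAGtcaagatgacct

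Ndufb1-ps, shorter form: accaggctgaagtcaagatgacct

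Ndufb2, longer form: ctctctggacgaGTAGgagcaaggtgag

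Ndufb2, shorter form: ctctctggacgagagcaaggtgag

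All 47 members had reads in both libraries, and together they made up 1.72% of annotated gene reads in replicate 1 (19031 reads, 95% Wilson interval 1.69 to 1.74%) and 1.95% in replicate 2 (27414 reads, 1.93 to 1.98%). The intervals here and below cover counting error only. The summed level of the 37 subunit genes was 15244 CPM in replicate 1 and 17240 CPM in replicate 2, or 16242 ± 1412 CPM (SD, n = 2); in bulk tissue, fewer cells of a type and less RNA per cell cannot be told apart. Their mean levels ran from 115 CPM for Ndufs5 to 872 CPM for Ndufa13, a 7.56-fold range around a median of 430 CPM. The 8 Ndufaf genes were far lower, with a median of 25.9 CPM and a sum of 209 and 248 CPM. In the order of the 37 subunit levels, 29 of the 36 pairs of neighbours had overlapping ranges over the libraries, so most adjacent ranks do not differ beyond that spread.

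**Figure D1:**
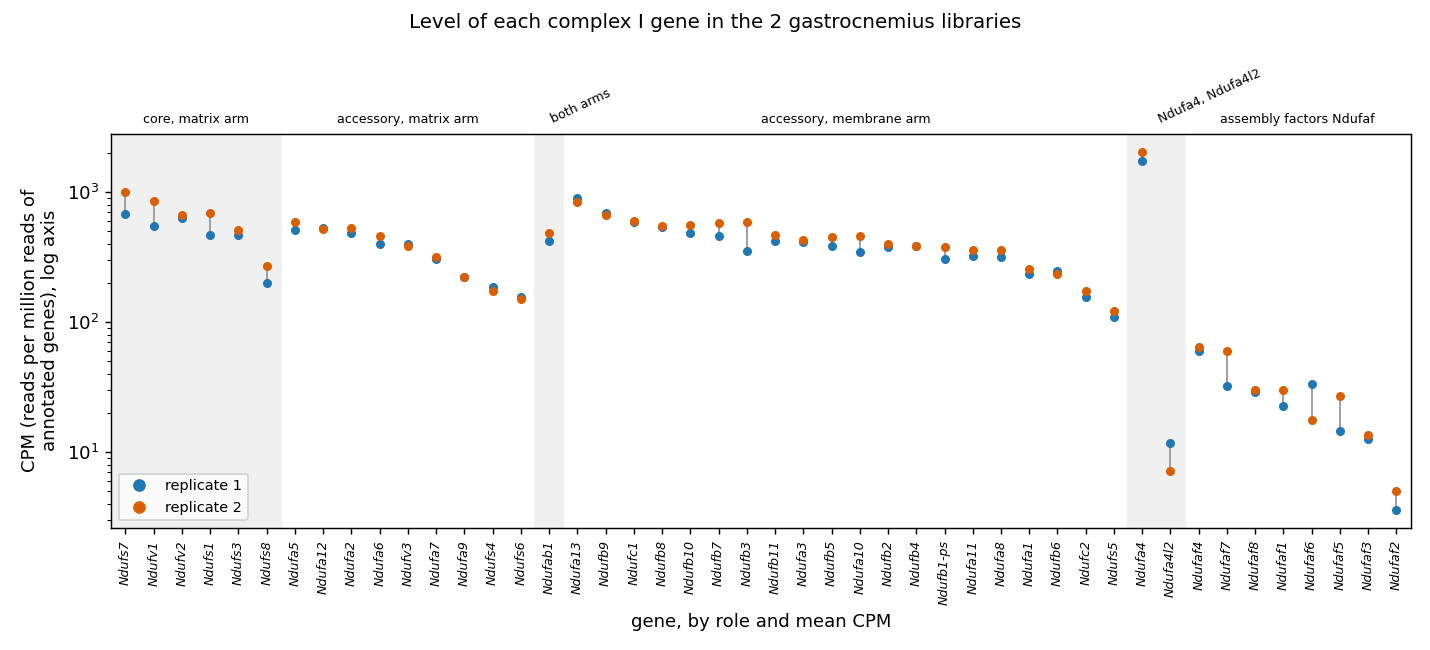
Level in CPM (log axis) of each of 46 genes in replicate 1 and replicate 2, grouped by role and ordered by mean CPM within each role; each point is 1 library and the grey line joins the libraries. The subunit genes lie between 115 and 872 CPM on average, Ndufa4 lies above them and the Ndufaf genes below.

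The 7 core genes of the matrix arm encode the subunits that carry electrons from NADH to ubiquinone. Ndufs7, whose protein binds the last iron-sulfur cluster before ubiquinone, had 677 CPM in replicate 1 and 1004 CPM in replicate 2. Ndufv1, which encodes the flavin- and NADH-binding subunit, had 549 and 862 CPM, and Ndufs1, which encodes the largest iron-sulfur subunit, had 467 and 693 CPM. These 3 genes were the core genes with the widest gap, each higher in replicate 2.

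Ndufv2, the partner of Ndufv1 in the NADH-binding module, had 638 and 665 CPM. Ndufs3, another core subunit gene of the matrix arm, had 471 and 513 CPM. Ndufs8, another iron-sulfur subunit gene, was the lowest of the core at 199 and 270 CPM. On the log2 scale, replicate 2 over replicate 1, the difference was 0.65 for Ndufv1 (counting interval 0.51 to 0.79), 0.57 for Ndufs7 (0.44 to 0.70), 0.57 for Ndufs1 (0.41 to 0.73) and 0.44 for Ndufs8 (0.20 to 0.69). Ndufv2 at 0.06 and Ndufs3 at 0.12 had intervals that span 0. Thus the core genes did not move as 1 block between the libraries.

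The 9 accessory genes of the matrix arm were nearly level between the libraries, at 3193 and 3353 CPM in sum. Of these, 4 of 9 were higher in replicate 2, against 60.5% of all annotated genes with at least 10 summed reads. Ndufa5 had the highest mean level of the 9, at 509 and 586 CPM, although Ndufa12 was above it in replicate 1. Ndufa12 had 527 and 524 CPM, Ndufa2 had 484 and 533 CPM, and Ndufa6 had 398 and 462 CPM. Ndufv3 had 401 and 386 CPM, and Ndufa7 had 306 and 316 CPM. Ndufa9, whose protein binds a nucleotide cofactor near the ubiquinone site, had 224 CPM in each library. Ndufs4, the gene often deleted to model mitochondrial disease in mice, had 188 and 173 CPM, and Ndufs6 had 155 and 150 CPM. Ndufs4 and Ndufs6, together with Ndufa9, were among the 5 accessory genes with the lowest mean level, beside the membrane arm genes Ndufc2 (156 and 173 CPM) and Ndufs5 (109 and 121 CPM).

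Ndufab1 encodes the mitochondrial acyl carrier protein, which occurs in both arms and also serves fatty acid synthesis. It had 423 CPM in replicate 1 and 485 CPM in replicate 2, close to the median level of the subunit genes.

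The membrane arm is represented by 20 accessory genes, whose sum was 8045 CPM in replicate 1 and 8850 CPM in replicate 2. Of these, 17 of 20 were higher in replicate 2, against 60.5% of all annotated genes with at least 10 summed reads. The counts by arm were not recomputed with other scalings. Ndufa13, which spans the membrane and was first described as the cell death gene Grim19, had the highest mean level of the subunit genes, at 906 and 838 CPM, although Ndufs7 and Ndufv1 were above it in replicate 2. Ndufb9 had 689 and 662 CPM, Ndufc1 592 and 603 CPM, and Ndufb8, whose protein is a common marker of assembled complex I, 542 and 548 CPM. Ndufb10 had 483 and 558 CPM and Ndufb7 had 462 and 576 CPM. Ndufb3 stood apart with 351 CPM in replicate 1 and 590 CPM in replicate 2, a log2 difference of 0.75 (0.57 to 0.92), the widest of the 39 structural genes. Ndufb11 and Ndufa1, both on the X chromosome, had 421 and 468 CPM and 235 and 256 CPM. The other 9 genes of the arm, Ndufa3, Ndufa8, Ndufa10, Ndufa11, Ndufb1-ps, Ndufb2, Ndufb4, Ndufb5 and Ndufb6, had mean levels from 242 to 425 CPM. Ndufa10 had the widest gap of these, at 346 and 458 CPM (log2 difference 0.40, counting interval 0.22 to 0.59).

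Ndufa4 was the highest of the 47 genes, at 1725 CPM in replicate 1 and 2046 CPM in replicate 2, above both libraries' values of every other member. Ndufa4l2, known as a gene induced by low oxygen, was listed with 13 and 10 reads, or 11.7 and 7.13 CPM. The read counts of Ndufa4l2 are too few to tell its libraries apart (log2 difference -0.72, counting interval -2.07 to 0.58).

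Among the assembly factor genes, whose products help to build complex I and are not part of it, Ndufaf4 was the highest with 67 and 91 reads (60.5 and 64.9 CPM). Ndufaf7, which encodes an arginine methyltransferase that modifies a core subunit, had 36 and 84 reads, and Ndufaf5, which encodes an arginine hydroxylase that modifies Ndufs7, had 16 and 38. Ndufaf6 had 37 and 25 reads and was the only one of the 8 that was lower in replicate 2, where 60.5% of all annotated genes were higher. Ndufaf8 had 32 and 42 reads, Ndufaf1 25 and 42, and Ndufaf3 14 and 19. Ndufaf2 had 4 and 7 reads, just above the limit of 3 counts.

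The counting intervals of the log2 difference lay above 0 for Ndufaf7 (0.88, 0.30 to 1.49) and Ndufaf5 (0.91, 0.03 to 1.85), below 0 for Ndufaf6 (-0.91, -1.70 to -0.14), and on both sides of 0 for the other 5. Assembly factors with other names had similar levels: 11 such genes had reads in both libraries and a median of 24.7 CPM, and Ecsit was the highest of them with 110 and 123 CPM. Of those 11, 6 were higher in replicate 2, with a median log2 difference of 0.15, against 60.5% and 0.14 over all annotated genes.

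The genes encoded by mitochondrial DNA form the membrane core of the complex, and they were counted apart. mt-Nd1 had 271 and 249 reads, mt-Nd2 254 and 305, mt-Nd4 139 and 142, and mt-Nd5 90 and 121. mt-Nd3 had 6 and 7 reads, mt-Nd4l had 1 in each library, and mt-Nd6 had 0 and 1. Their summed level was 687 CPM in replicate 1 and 589 CPM in replicate 2, below that of Ndufa13 alone in both libraries. How well the method recovers these transcripts was not tested.

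Across the 39 structural genes the level was higher in replicate 2 for 29, with a median log2 difference of 0.14. Over all annotated genes with at least 10 summed reads the share higher in replicate 2 was 60.5%, and the median log2 difference was 0.14 as well. With TMM factors or median-ratio factors, which scale the libraries on the bulk of the genes, 22 of the 39 were higher and 17 lower, and the share over all genes was 53.8% and 52.6%. By either scaling the median of the structural genes stayed next to that of all genes of any length, but the median over genes changed with transcript length. Among genes with at least 50 summed reads and a mean model length under 800 nt, the median log2 difference in CPM was 0.14 for 20 subunit genes and -0.00053 for 337 annotated genes. From 800 to 1400 nt it was 0.14 for 8 subunit genes and -0.05 for 639 annotated genes, and from 1400 nt upward it was 0.08 for 9 subunit genes and 0.16 for 3316 annotated genes. So the subunit genes under 1400 nt, 28 of 37, had a higher median than annotated genes of their length, and the longer ones a lower median. These length classes were chosen after the values were seen, and the part of length was not tested. No member with at least 50 summed reads differed over 2-fold between the libraries (0 of 44), and the share over all annotated genes with that minimum was 4.54%. The members were read more deeply than most genes, with a median of 393 CPM. Over all annotated genes with at least 10 summed reads the median was 19.4 CPM. The part of depth was not tested, and 0 of 44 is too few genes to set apart from a share of 4.54%.

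For 12 structural genes the counting interval of the log2 difference excluded the median of all genes. The same share over all annotated genes was not computed, here or by length class, so these counts have no background. Counting intervals also narrow as reads increase. The interval lay above the median of all genes for Ndufa4, Ndufs7, Ndufv1, Ndufs1, Ndufb7, Ndufb3, Ndufa10 and Ndufs8, and below it for Ndufa13, Ndufb9 and Ndufv3 among others. It was included in the intervals of 27 structural genes. Against the median of annotated genes in the same length class, the interval lay above for 16 of the 39, below for 2 and included the median for 21. The intervals of Ndufa13, Ndufb9 and Ndufv3 were among the 21. Of the 8 high genes, 4 are core genes, 3 belong to the membrane arm and 1 is Ndufa4, while Ndufa13 and Ndufb9 among the low genes belong to the membrane arm.

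**Figure D2:**
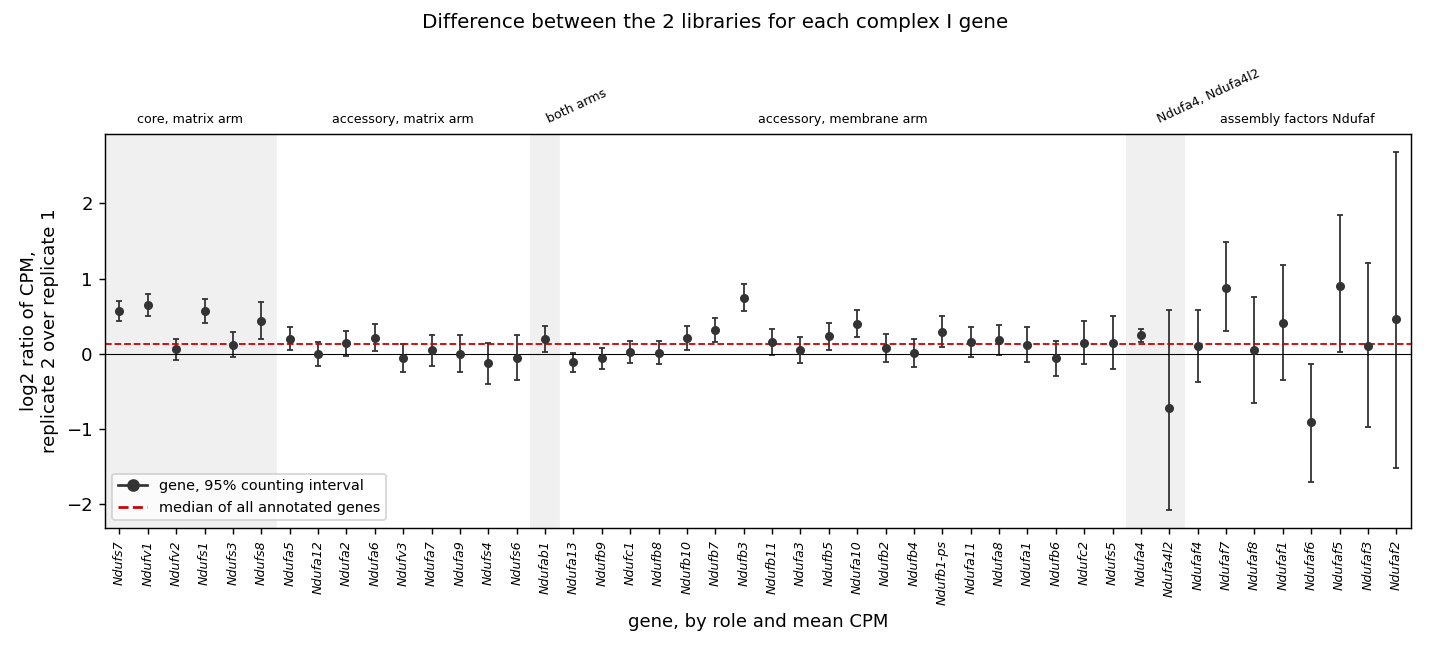
Log2 ratio of CPM, replicate 2 over replicate 1, for each of 46 genes with its 95% counting interval, in the order of the level plot; the dashed line is the median of all annotated genes, 0.14. Ndufv1, Ndufs7, Ndufs1 and Ndufb3 lie above the line with their whole intervals, and the few reads of the Ndufaf genes give wide intervals.

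The other respiratory complexes were set beside complex I by the same measure. The summed level of 4 complex II genes was 1.39-fold higher in replicate 2, that of 9 complex III genes 1.24-fold, that of 13 complex IV genes 1.19-fold and that of 14 ATP synthase genes 1.20-fold, against 1.13-fold for the 37 complex I genes. The median log2 difference was 0.37, 0.30, 0.25 and 0.14 in the 4 other complexes and 0.14 in complex I. The medians of complex I and ATP synthase were thus alike without regard to transcript length. The summed level of the mitochondrially encoded complex I genes was 0.86-fold. With 1 library against 1, these are descriptions of the libraries.

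**Figure D3:**
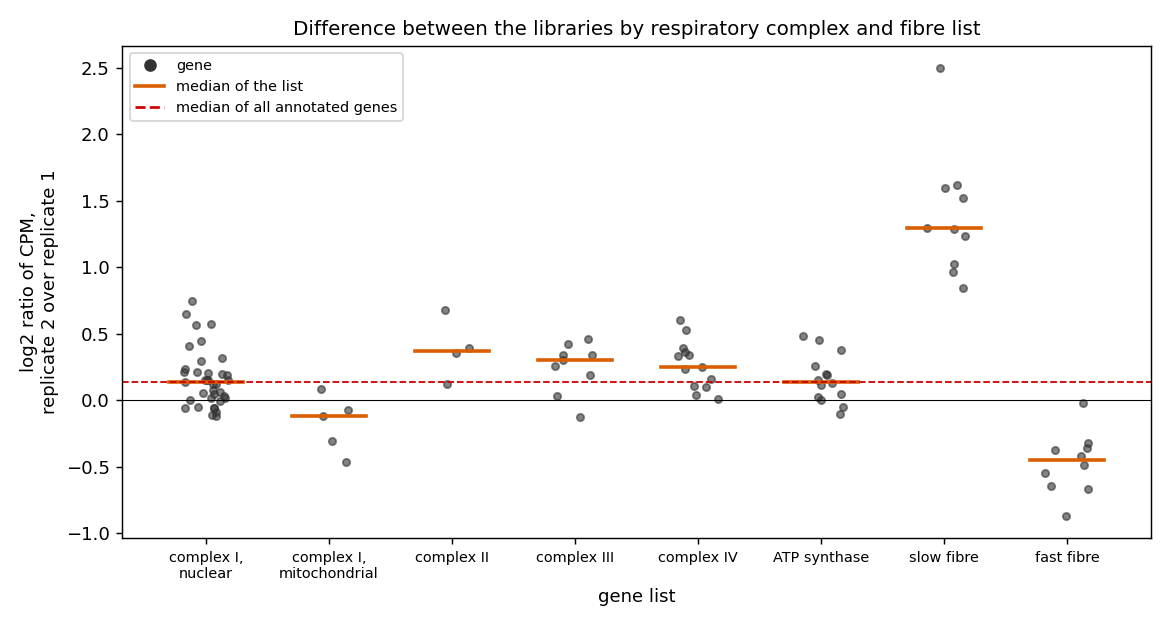
Log2 ratio of CPM, replicate 2 over replicate 1, for each gene with at least 10 summed reads in lists of the respiratory complexes and of fibre type genes; orange bars are list medians and the dashed line is the median of all annotated genes. The median of the nuclear complex I genes lies near the dashed line, which takes genes of every length, complexes II to IV lie above it, and the slow fibre list lies highest.

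Each transcript model carries a class given by the authors' annotation step: annotated transcript (Known), part of an annotated intron chain (incomplete splice match, ISM), a new combination of annotated splice sites (NIC), a chain with a new splice site (NNC), or Genomic. Annotated transcripts held 85.2% of the reads of the 37 subunit genes in replicate 1 (14387 of 16877, Wilson interval 84.7 to 85.8%) and 83.8% in replicate 2 (20277 of 24186, 83.4 to 84.3%). Over all annotated genes the share was 66.2% and 65.5%. The subunit genes had few reads with new splice sites, 1.46% and 1.08%, against 17.2% and 17.4% over all genes. Their pooled share of ISM reads was not lower, at 10.7% and 13.6% against 10.3% and 9.95%, but a few genes held most of these reads. Of 1800 and 3280 ISM reads, Ndufa13 held 995 and 1163, Ndufs7 388 and 872, and Ndufb3 0 and 582. The class of the Ndufb3 reads cannot be compared between the libraries, as described below. All these shares are pooled over reads, so the most read genes weigh most, such as Atp2a1 with 163251 and 203279 reads. The subunit models are short, with a median over genes of 758 nt. Over all annotated genes with at least 10 summed reads it was 2480 nt. The parts of length and of the most read genes in these contrasts were not tested.

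Of the 37 subunit genes, 30 had over 90% annotated reads in both libraries, and 3 had under 60% in both: Ndufa13, Ndufs7 and Ndufb3. Such counts by gene were not made over all annotated genes. The 8 Ndufaf genes together had 74.9% and 68.7% annotated reads.

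**Figure D4:**
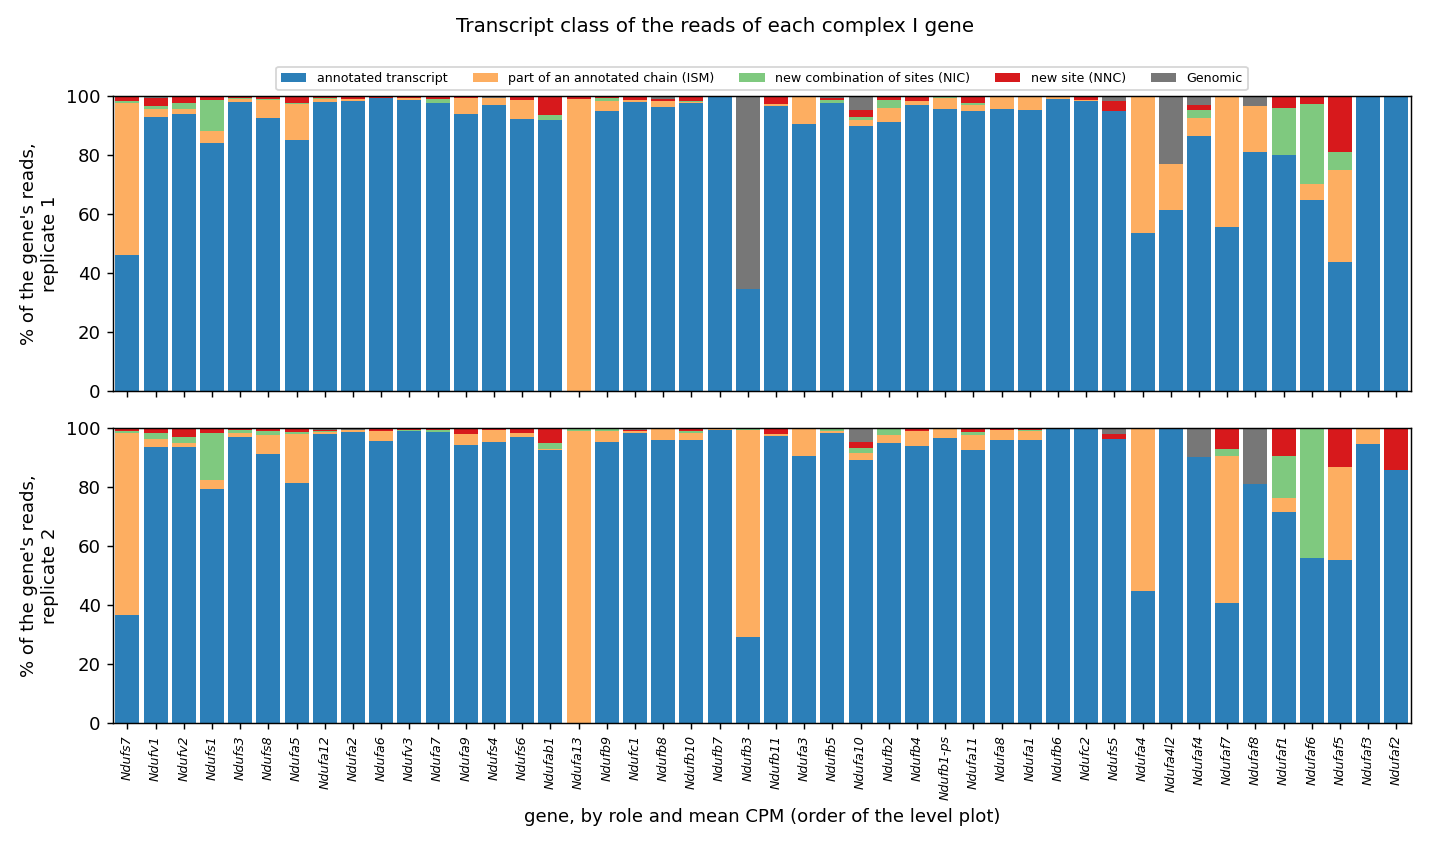
Share of each gene's reads by transcript class in replicate 1 (top) and replicate 2 (bottom), in the order of the level plot. Most bars are almost wholly annotated, and Ndufs7, Ndufa13, Ndufb3 and Ndufa4 carry large shares of other classes in both libraries.

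The members with many unannotated reads differed in what those reads lack. Ndufa13 at chr8:69894180-69902558 on the minus strand had 0 reads in annotated transcripts in either library. Instead 980 of its 1003 reads in replicate 1 and 1149 of 1175 in replicate 2 followed 1 chain that lacks the first exon of the annotated coding transcript but holds every coding junction. Yjefn3, which overlaps Ndufa13 on the same strand, was counted with 19 and 32 reads, and how the authors' counting split reads between them is not given in the sources used here.

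Ndufs7 at chr10:80249121-80256794 on the plus strand had its most read annotated transcript in 340 and 506 reads, and a chain of only its last 2 exons in 372 and 845 reads. Reads with every coding junction of Ndufs7 made up 45.7% of its reads in replicate 1 and 36.1% in replicate 2. Counting only these, its log2 difference between the libraries was 0.23, not 0.57. Ndufa4 at chr6:11900292-11907497 on the minus strand was alike: its most read annotated transcript had 1017 and 1280 reads, a 2-exon chain from the 3′ end had 869 and 1561, and reads with every coding junction gave a log2 difference of -0.01, not 0.25. For Ndufs7 and Ndufa4, then, much of the gap between libraries lay in partial chains, while for Ndufv1 (0.66), Ndufs1 (0.59), Ndufs8 (0.42) and Ndufa10 (0.40) the coding-complete reads kept the size of the gap.

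Ndufb3 at chr1:58586384-58595964 on the plus strand had its annotated transcript in 134 and 241 reads. Its other reads were single-exon models at the 3′ end, 255 reads classed Genomic in replicate 1 and 580 reads classed ISM in replicate 2. The Genomic model of replicate 1 spanned 1763 nt and reached upstream of the last exon, whereas the model of replicate 2 covered the last exon alone. The libraries were annotated separately, so the class of these reads cannot be compared between them. By coding-complete reads the log2 difference of Ndufb3 was 0.52.

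Over 36 subunit genes with a coding annotation, 27 had over 90% of reads with every coding junction in both libraries. Coding junctions are those of 1 annotated coding transcript per gene, in most cases the most read one. Ndufs7, Ndufb3 and Ndufa5 (75.2% and 72.0%) were among those with under 80% in a library. Ndufa5 reads that skip its 117 nt exon lack a coding junction by this measure, so its share counts exon skipping as well as partial chains. The coding-complete reads of these 36 were higher in replicate 2 for 28 genes, with a median log2 difference of 0.13. The count of genes higher in replicate 2 was thus much the same with full coding reads as with all reads. Coding-complete reads were not counted over all annotated genes. By all reads, 60.5% of annotated genes were higher in replicate 2, with a median log2 difference of 0.14.

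A leading model, the one with most reads, could be compared in the 43 members with at least 20 reads in each library outside the class Genomic. It was the same in both libraries for 39 of 43, against 94.3% of all annotated genes tested the same way. The 4 that differed were Ndufa4, Ndufb3, Ndufaf7 and Ndufb2. For Ndufb3, the 255 single-exon reads of replicate 1 are classed Genomic and were left out. The 580 of replicate 2 are classed ISM and were kept, so its difference rests on a class that cannot be compared between the libraries. In 24 of the 37 subunit genes, the leading model held over 90% of reads in both libraries. That share was not computed over all annotated genes, so the count has no background. In Ndufb2 the change was between annotated transcripts of nearly equal share, 198 of 418 reads for the leader in replicate 1 and 275 of 561 reads for the other one, the leader in replicate 2.

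Internal exons were scored where at least 20 reads in each library spanned them, which gave 163 exons in 43 genes. Of these, 143 were included in over 98% of spanning reads in both libraries, and 3 had a mean inclusion between 5 and 95%. The Ndufa5 exon printed above was included in 88.6% ± 0.669 (SD, n = 2) of spanning reads, with Wilson intervals of 85.1 to 90.7% and 86.6 to 91.2%, so the libraries did not differ beyond counting error. The Ndufaf6 exon was included in 75.0% (58.9 to 86.2%) and 64.0% (44.5 to 79.8%), a wide interval at 36 and 25 reads. A 104 nt exon in the 5′ UTR of Ndufs1 at chr1:63172154-63172257 was included in 8.06% (5.98 to 10.8%) and 13.4% (11.4 to 15.7%), and these intervals do not overlap.

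The long exon of Ndufv3 was included in 10 of 442 spanning reads in replicate 1 and 16 of 539 in replicate 2, or 2.26% (1.23 to 4.11%) and 2.97% (1.84 to 4.77%). The short form, with the junction from second to last exon printed above, therefore carried nearly all Ndufv3 reads in this muscle. The intervals of the libraries overlap.

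**Figure D5:**
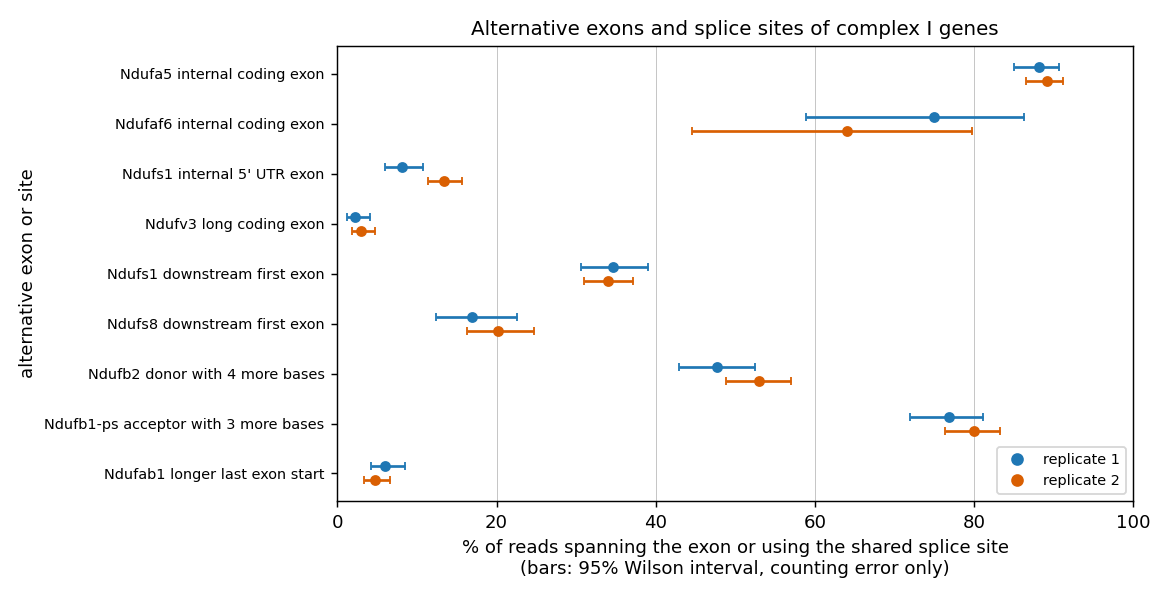
Share of spanning reads that include each alternative exon, or of reads at a shared splice site that use the named alternative, in replicate 1 and replicate 2, with 95% Wilson intervals. Ndufa5 lies near 88.6%, the Ndufv3 long exon near 2.62% and the Ndufb2 donor near 50.3%, and the intervals of the libraries overlap in every row except that of the Ndufs1 5′ UTR exon.

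At the splice sites described here, the counting intervals of the libraries overlapped. The longer donor of Ndufb2 took 199 of 417 and 297 of 561 reads (50.3% ± 3.69, SD, n = 2), so the forms printed above had nearly equal shares. The longer acceptor of Ndufb1-ps took 252 of 328 and 413 of 516 reads (78.4% ± 2.27). Ndufs1 used its upstream first exon in 324 of 496 and 619 of 941 reads that reach the shared acceptor (65.3% and 65.8%) and a downstream first exon in 34.7% and 34.0%, with reads through the 104 nt exon counted under the first exon they start from. Ndufs8 used its upstream first exon in 80.2% and 77.8% and a downstream one in 16.9% and 20.2%.

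Some repeated chains are absent from the annotation. In all, 41 unannotated chains had at least 5 reads in each library, 29 of them partial chains, 7 of the class NIC and 5 of the class NNC. In Ndufab1 an unannotated acceptor for the last exon took 28 of 467 and 32 of 679 reads, 5.35% ± 0.907 (SD, n = 2), beside the annotated acceptor with 417 and 592 reads.

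Reads could also be split between a member and near-identical copies elsewhere in the genome. A search of annotated pseudogene transcripts found 24 copies of 17 members with at least 90% identity over at least 200 nt, and 5 of these had reads. BC002163, a processed pseudogene at chr16:42955631-42955949 on the plus strand, had 69 and 96 reads, against 121 and 170 for Ndufs5, the membrane arm gene at chr4:123712710-123718202 on the minus strand whose transcript it matches over 319 nt. The sequences differ at 2 bases, T173C and A197G, where positions are counted from 1 at the 5′ end of the annotated Ndufs5 transcript and its base is given first. The window around both is shown, with the differing bases in capitals.

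Ndufs5: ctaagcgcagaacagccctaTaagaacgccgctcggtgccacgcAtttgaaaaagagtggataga

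BC002163: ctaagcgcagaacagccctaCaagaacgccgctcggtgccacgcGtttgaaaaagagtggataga

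With 2 differences in 319 nt, the split of reads between Ndufs5 and BC002163 is uncertain, and so is the place of Ndufs5 as the lowest of the subunit genes. The other 4 copies with reads had at most 5 in a library, against 339 or more for their parent genes.

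Promoters were compared as the RefSeq windows of 300 bases (250 before to 50 after the gene start, build GRCm38.p6), available for 41 of the 47 members and 33 of the 37 subunit genes. Each of 4 short motifs of factors known to act on nuclear genes of respiration was searched on both strands. TGCGCA, the core of the NRF1 site, was in 10 of 33 subunit promoters (30.3%), against 8.83% of all 26742 genes in the table. AAGATGG, the YY1 core, was in 7 of 33 (21.2%, against 7.32%), CCGGAAG, the ETS core, in 4 (12.1%, against 10%), and AAGGTCA, an oestrogen-related receptor site, in 3 (9.09%, against 5.38%). The letters of these motifs do not contain each other, and a match describes the sequence only. The 26742 genes were not limited to those with reads in this muscle, and were not matched to the subunit genes in base composition. What part either has in the shares was not tested. Ndufb8 and Ndufs5 are the highest and the lowest in level of the 6 subunit genes whose promoter holds matches to 2 of the motifs. Their windows from 150 bases before to 30 after the start, chr19:44555413-44555592 and chr4:123718157-123718336, both on the minus strand, are shown with TGCGCA in capitals. The other match, to the YY1 core in Ndufb8 and to the oestrogen-related receptor site in Ndufs5, lies outside the stretch shown.

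Ndufb8: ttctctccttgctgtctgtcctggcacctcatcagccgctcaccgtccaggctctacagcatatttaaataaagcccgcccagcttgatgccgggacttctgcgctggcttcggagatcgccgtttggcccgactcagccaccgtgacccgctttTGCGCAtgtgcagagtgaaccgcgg

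Ndufs5: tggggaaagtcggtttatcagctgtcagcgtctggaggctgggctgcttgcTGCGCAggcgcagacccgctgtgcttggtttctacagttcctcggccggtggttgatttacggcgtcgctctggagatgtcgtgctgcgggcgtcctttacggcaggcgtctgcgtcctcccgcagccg

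All 6 promoters with 2 of the motifs hold TGCGCA, and this pair was picked as the highest and the lowest in level. The mean level was 545 CPM for Ndufb8 and 115 CPM for Ndufs5, the latter uncertain as described above. That contrast comes from the choice, and the part of the motif in the levels was not tested.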

How the data were processed

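Whole-molecule reads of 2 gastrocnemius libraries were assigned by TALON to GENCODE M21 transcripts or unannotated models on build mm10, per the file headers and deposited notes. The authors deposited raw counts of reads per transcript model, 1 table per library, without normalisation. Exon numbers and lengths of each model were deposited beside them. Aligner, filters and software versions of that step: not given in the sources used here.

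Counts were summed per gene over all models and divided by the reads of annotated genes, without spike-ins. Log2 ratios needed 10 summed reads, fold calls 50, leading models and exons 20 reads in each library. Counting intervals are at the 95% level (Wilson for shares, exact binomial for ratios). TMM factors came from edgeR 4.0.16 (R 4.3.3). Copies were searched with BLAST 2.17.0, and Ndufs5 and its copy were aligned with Biopython 1.88. Scripts ran in Python 3.11.15 and were tested on simulated data. Every column was mapped to a library (0 unmapped).

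Named are core genes, the 10 highest and 5 lowest accessory genes, Ndufa4, Ndufa4l2, Ndufab1, Ndufv3, each Ndufaf gene, members over 2-fold apart, and up to 10 members with unusual leading models or repeated unannotated chains. The other genes named were chosen after their values were seen, as were the roles and motifs. The members and lists were chosen with earlier results of these data known. Coa1 and Atp5pb were not matched to the annotation by name. Alternatives tried were other scalings, transcript classes, read minimums, thinning of the deeper library, and leaving out Ndufa4 or a library. The result of 1 member is not reported here by name, but it is counted in the sums and counts.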

Additional observations from a re-analysis of the deposited data

How the results depend on the processing

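Of 47 recomputed values, 41 kept their direction and stayed within the tolerance set: 1 SD between the libraries for levels and shares, 0.1 for the median log2 ratio and 1.5 times for counts. The other 6 moved. With median-ratio factors the median log2 ratio of the structural genes was 0.037 instead of 0.14, while that of all genes was 0.04 instead of 0.14. With TMM factors these medians were 0.053 and 0.052, and the first was within the tolerance of 0.1. With median-ratio factors 1 member, Ndufaf6, was over 2-fold apart (-1.01), and with TMM factors 0 were. Without the class Genomic it was also 1, Ndufb3 (2.29), because its single-exon reads carry that class in replicate 1 alone. The summed level of the structural genes, 18137 CPM, was 22266 CPM with annotated transcripts only, where the library total is smaller, and 16252 CPM without Ndufa4. Without Ndufa4 the share of structural reads in annotated transcripts was 84.5%, not 80.9%. Leaving out a library gave 16981 to 19293 CPM for the summed level, 79.7 to 82.0% for the annotated share and 2.26 to 2.97% for the long exon of Ndufv3. With n = 2, each library lies within 1 SD of the mean by arithmetic. The values without a library could therefore not move, although they are counted among the 41. No paired analysis was possible because the series holds 1 group. The depth limits Ndufaf2, Ndufaf3 and Ndufa4l2 most, with under 20 reads in each library.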
